A study of Homo sapiens with 14 samples.

Results

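The keratin genes described here are KRT5, KRT6A, KRT7, KRT8, KRT17, KRT18, KRT19, KRT20, KRT80 and KRT81, taken by symbol from the gene column of the deposited files. They are 10 of the 23040 genes listed and 10 of the 55 keratin genes among them, 26 of type II and 29 of type I. Keratins are the intermediate filament proteins of epithelial cells, and a filament is built from obligate pairs of a type II (basic) and a type I (acidic) chain. Simple epithelia such as the pancreatic duct are known for KRT8 with KRT18 and for KRT7 with KRT19, whereas KRT5, KRT6A and KRT17 belong to stratified, basal or wounded epithelia. Of the 10 members, 6 are type II genes (KRT5, KRT6A, KRT7, KRT8, KRT80 and KRT81) and 4 are type I genes (KRT17, KRT18, KRT19 and KRT20). All positions are those of the files, in hg19, counted from 1 and including introns, and no member overlaps another listed gene.

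Total RNA was sequenced from the established human pancreatic cancer cell lines AsPC-1 and Panc-1. Each line was serum-starved and given epidermal growth factor (EGF) at 50 ng/ml, the classical ligand of the receptor EGFR, or the secreted ribonuclease angiogenin (ANG, also named hRNase5) at 1 µg/ml, and RNA was taken after 1, 5 or 24 h. Each line also had a mock library, whose time is not given in the labels, so that 7 conditions of 1 library each made up the 7 libraries of a line and the 14 of the study. No condition was repeated within a line, and the p-values below measure only the spread between these libraries, since nothing in the labels describes separate cultures. The doses differ between the ligands, so EGF against ANG is a comparison of 2 treatments at single doses.

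Estimated depth was 18.9 to 23.9 M reads in AsPC-1 (median 21.2) and 11.2 to 16.9 M reads in Panc-1 (median 15.2). At that depth 1 read in 2 kb of transcript was worth 0.0209 to 0.0445 RPKM (reads per kilobase of transcript per M mapped reads, a level per length). Of 6 ductal epithelial markers, EPCAM, CDH1, SOX9, MUC1 and CEACAM6 reached 1 RPKM in both lines and CFTR did not, with a summed level of 864 to 1280 RPKM in AsPC-1 and 39.4 to 66.4 RPKM in Panc-1. CEACAM6 made up most of the AsPC-1 sum (580 to 1030 RPKM), whereas SOX9 was at 9.67 to 17.4 RPKM in AsPC-1 and 15.5 to 36.6 RPKM in Panc-1. None of 7 acinar and none of 4 endothelial markers reached 1 RPKM, and of 5 leukocyte markers only CD68 did. Of 7 stromal fibroblast markers, LUM was at 26.5 to 46.3 RPKM in AsPC-1 and under 1 RPKM in Panc-1, and ACTA2 reached 1.07 RPKM in Panc-1. Of 6 neuroendocrine markers only SYP reached 1 RPKM, at 4.62 to 7.60 RPKM in Panc-1. Markers of cell division set the early libraries (1 h and 5 h) apart from those of mock and 24 h. The median log2 difference from mock of 10 genes of the G2 and M phases (MKI67, TOP2A, CCNB1 and 7 others, chosen after their values were seen) was -2.21, -3.74 and -0.45 after 1, 5 and 24 h of EGF in AsPC-1 and -2.78, -2.95 and -0.17 after ANG. In Panc-1 these medians were 1.43, 1.14 and 0.12 after EGF and 1.38, 1.36 and -0.23 after ANG. Genes under 400 bp in span took 5.11 to 17.2% of the reads of a library, and the RPKM of every other gene is relative to a total that includes them.

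Both lines made their keratin transcripts almost wholly from KRT8, KRT18 and KRT19. These genes held 97.0 to 98.9% of the summed RPKM of all 55 keratin genes in AsPC-1 and 96.7 to 97.5% in Panc-1. The summed level was 1670 to 2190 RPKM in AsPC-1 (median 1770) and 907 to 1400 RPKM in Panc-1 (median 1030). Type I transcripts outnumbered type II transcripts per length in every library, with a type II to type I ratio of 0.447 to 0.553 in AsPC-1 and 0.384 to 0.436 in Panc-1. Of the other members, KRT7 and KRT80 were at 2.82 to 18.7 RPKM, KRT17 reached 1 RPKM in only 3 libraries, and KRT5, KRT6A, KRT20 and KRT81 reached it in none.

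KRT8, the type II chain of simple epithelia (chromosome 12, 53290971 to 53298868, minus strand), was at 593 RPKM in the AsPC-1 mock library, at 752, 720.1 and 576 RPKM after 1, 5 and 24 h of EGF, and at 568, 587 and 528 RPKM after ANG. In Panc-1 it was at 401 RPKM in mock, 294, 267 and 297 RPKM after EGF and 264, 250.2 and 378 RPKM after ANG. Every AsPC-1 library was above every Panc-1 library, the highest AsPC-1 libraries being those of 1 h and 5 h of EGF and the highest Panc-1 libraries those of mock and 24 h of ANG. KRT18, its type I partner (chromosome 12, 53342655 to 53346685, plus strand), lies next to it in the type II cluster, away from the other type I genes on chromosome 17. In AsPC-1 it was at 728 RPKM in mock, 888, 892 and 774 RPKM after 1, 5 and 24 h of EGF and 673, 723 and 743 RPKM after ANG. The Panc-1 levels were 522 RPKM in mock, 334, 350 and 395 RPKM after EGF and 332, 313 and 523 RPKM after ANG. KRT18 thus showed the same separation of the lines as KRT8, and the ratio of KRT8 to KRT18 stayed between 0.710 and 0.880 over the 14 libraries. Of all 50-base stretches of the KRT18 transcript 28.9% also occur in transcripts of other genes, mostly KRT18 pseudogenes, so its level is uncertain where reads were shared, while for KRT8 and KRT19 this share was 1.88% and 1.79%.

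KRT19, a small type I keratin of ducts that is used as a carcinoma marker (chromosome 17, 39679869 to 39684641, minus strand), was at 362 RPKM in the AsPC-1 mock library, at 505, 521 and 522 RPKM after 1, 5 and 24 h of EGF, and at 399, 427 and 376 RPKM after ANG. The Panc-1 libraries had 433 RPKM in mock, 369.6 to 424 RPKM over the EGF libraries and 317 to 429 RPKM over the ANG libraries. The lines overlapped, because the AsPC-1 libraries of mock and of 1, 5 and 24 h of ANG were below the highest Panc-1 library, that of mock. The AsPC-1 libraries of EGF were above every Panc-1 library. The order of the 3 abundant genes differed between the lines. KRT18 was followed by KRT8 and then KRT19 by their medians in AsPC-1 (743, 587 and 427 RPKM), where the range of KRT8 overlapped that of KRT18 but not that of KRT19. In Panc-1 the medians of KRT19 (370 RPKM) and KRT18 (350 RPKM) lay within each other's range, and the ratio of KRT19 to KRT18 was 0.497 to 0.674 in AsPC-1 and 0.820 to 1.11 in Panc-1.

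KRT7, the type II keratin of ductal and glandular epithelium (chromosome 12, 52626954 to 52642709, plus strand), was at 5.87 RPKM in the AsPC-1 mock library, at 15.7, 10.0 and 4.55 RPKM after 1, 5 and 24 h of EGF, and at 11.8, 12.7 and 6.32 RPKM after ANG. In Panc-1 it stayed within 2.82 to 4.16 RPKM, with mock at the low end and 1 h of EGF at the high end. The 4 early AsPC-1 libraries were the highest of all. The late and mock AsPC-1 libraries, at 4.55 to 6.32 RPKM, were nearer to the Panc-1 range but above it. KRT80, a type II keratin found across many epithelia (chromosome 12, 52562780 to 52585784, minus strand), was at 5.58 RPKM in the AsPC-1 mock library, at 9.33, 5.98 and 3.66 RPKM after 1, 5 and 24 h of EGF, and at 6.36, 7.85 and 4.90 RPKM after ANG. In Panc-1 it was at 18.7 RPKM in mock, 12.2, 13.1 and 18.1 RPKM after EGF and 9.78, 12.7 and 16.2 RPKM after ANG. KRT80 was the only measured member with every AsPC-1 library below every Panc-1 library, and its early and late libraries stood in opposite order in the lines. By its median it ranked above KRT7 in Panc-1 (13.1 and 2.90 RPKM) with no overlap, whereas in AsPC-1 their ranges overlapped (medians of 5.98 and 10.0 RPKM).

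KRT17, a type I keratin induced in wounded and stressed epithelium (chromosome 17, 39775692 to 39780882, minus strand), was at 0.05 RPKM in the AsPC-1 mock library, at 1.66, 2.78 and 0.22 RPKM after 1, 5 and 24 h of EGF, and at 0.81, 1.09 and 0.12 RPKM after ANG. Panc-1 held 0.04 to 0.12 RPKM of it, with mock the highest. The AsPC-1 libraries held an estimated 4 and 7 of its reads at 24 h, 25 to 106 at 1 h and 5 h and 2 in mock, and the Panc-1 libraries held 1 to 3. Of its 50-base stretches 16% occur in other genes, 9.36% in the pseudogene KRT17P1 and 0.999% in KRT16. KRT81, a hair keratin (chromosome 12, 52679697 to 52685299, minus strand), was within AsPC-1 also highest in the early libraries, with 0.04 RPKM in mock, 0.47, 0.55 and 0 RPKM after 1, 5 and 24 h of EGF and 0.25, 0.34 and 0 RPKM after ANG. The Panc-1 range was 0.10 to 0.28 RPKM. It shares 38.4% of its 50-base stretches with KRT86, and its values cannot be assigned to KRT81 alone.

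KRT20, a type I keratin of intestinal epithelium and urothelial umbrella cells (chromosome 17, 39032141 to 39041495, minus strand), was at 0.13 to 0.30 RPKM in all 7 AsPC-1 libraries, an estimated 5 to 12 reads. In Panc-1 it was at 0.04 RPKM in mock and listed at 0 in the other 6 libraries. KRT5, the type II keratin of basal cells (chromosome 12, 52908359 to 52914243, minus strand), was at 0.13 RPKM or less in AsPC-1 and 0.06 RPKM or less in Panc-1. KRT6A, a wound-induced type II keratin (chromosome 12, 52880958 to 52887181, minus strand), was above 0 in only 2 AsPC-1 libraries and 1 Panc-1 library, at 0.07 RPKM or less, and 39.1% of its 50-base stretches occur in other genes, chiefly KRT6C and KRT6B. KRT5 and KRT6A were therefore at the level of a few reads in both lines.

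**Figure D1:**
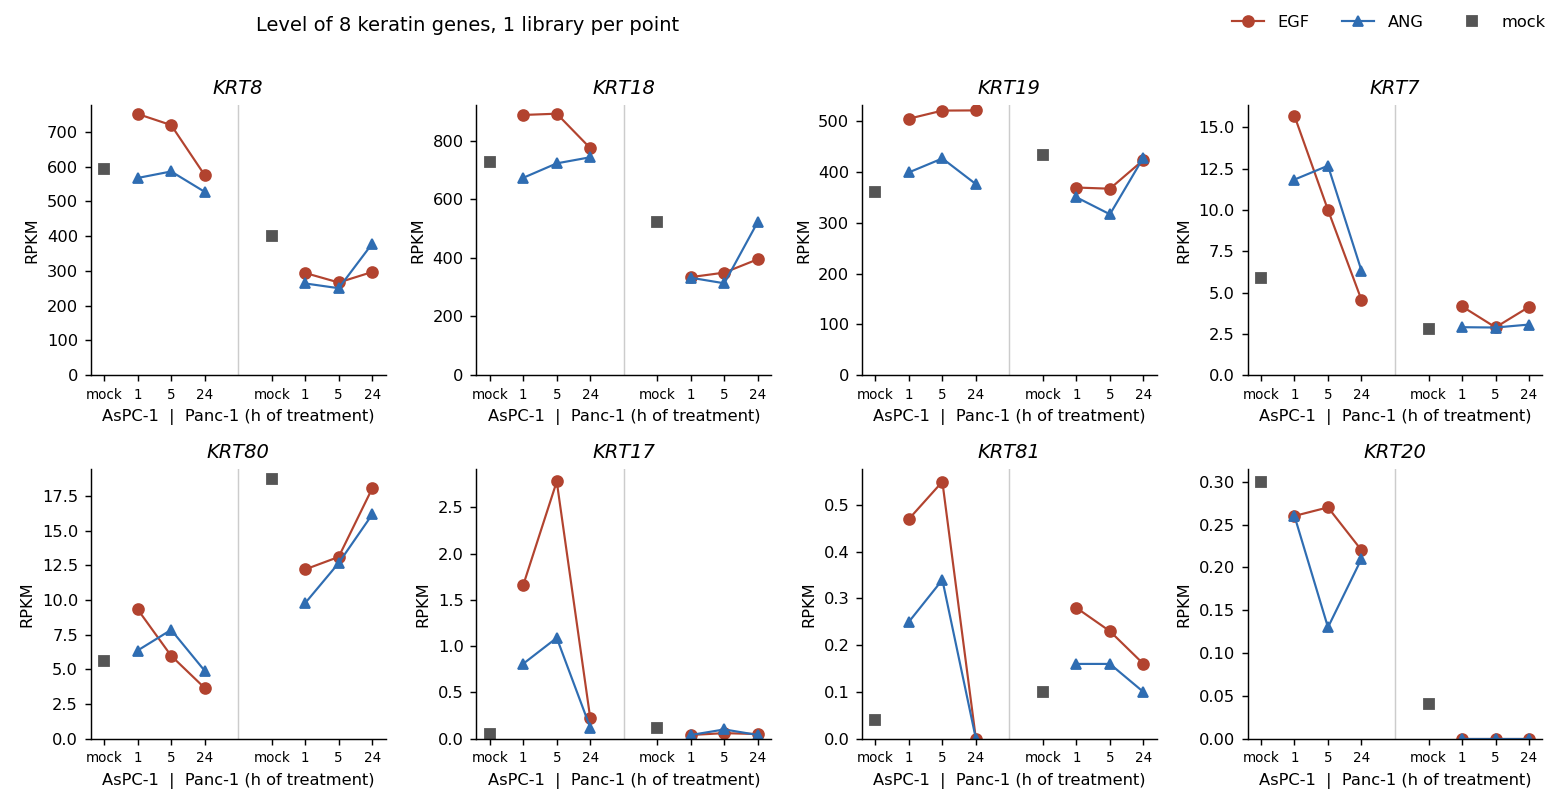
Level (RPKM, linear axes from 0) of 8 keratin genes in each library, by line and by hours of treatment, with mock at the left of each line; circles are EGF, triangles ANG and squares mock. KRT7 and KRT17 are highest in the AsPC-1 libraries of 1 h and 5 h, and KRT80 is lower in AsPC-1 (3.66 to 9.33 RPKM) than in Panc-1 (9.78 to 18.7 RPKM).

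Within each of the 7 conditions AsPC-1 was set against Panc-1, to see how the keratins of the lines differ. KRT8, KRT18 and KRT7 were higher in AsPC-1 and KRT80 was lower, while KRT19 did not pass the test. KRT8 was 1.39 to 2.70 times as high in AsPC-1 as in Panc-1 and higher in 7 of 7 conditions, by 1.02 ± 0.14 (± SE) on the log2 scale (limma adjusted p = 0.000192). KRT18 was higher in 7 of 7 conditions, by 0.99 ± 0.14 on the log2 scale (limma adjusted p = 0.000255). KRT7 was higher in 7 of 7 conditions, by 1.22 ± 0.21 (limma adjusted p = 0.000889), with the smallest ratio, 1.10, after 24 h of EGF. KRT80 was lower in 7 of 7 conditions, with a log2 fold change of -1.10 ± 0.21 (limma adjusted p = 0.00154) and ratios of 0.203 to 0.764. Fold changes here and below are on the log2(RPKM + 1) scale, which understates the change of low genes, and in bulk RNA fewer cells with a transcript and less of it per cell cannot be told apart.

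KRT19 was higher in AsPC-1 in 5 of 7 conditions and lower in mock and after 24 h of ANG, with a log2 fold change of 0.20 ± 0.12 (limma adjusted p = 0.164). KRT17 was higher in 6 of 7 conditions by 0.73 ± 0.23 (limma adjusted p = 0.0206), but it passed the filter on low values only through the early AsPC-1 libraries and its count supports nothing. Its call was lost without the AsPC-1 library of 1 h of EGF (limma adjusted p = 0.0570), without the AsPC-1 library of 5 h of ANG (0.05, at the threshold) or without the Panc-1 library of 1 h of EGF (0.0567). Of the 6 members that passed the filter of 1 RPKM in 2 libraries, 4 were higher and 1 was lower. Of all 13427 genes tested 68.8% passed, 29.3% higher and 39.6% lower, so that a call between the lines is the usual outcome for a gene. Without KRT17, 3 of 5 were higher and 1 lower, with a median log2 fold change of 0.99, against -0.13 over all genes. With no filter KRT20 was also called, at 0.30 ± 0.02 (limma adjusted p = 9.19e-06), with KRT5, KRT6A and KRT81 not past the threshold (adjusted p of 0.255, 0.368 and 0.5). That fit called 4306 genes higher and 6541 lower of 19783. KRT20 rested on an estimated 5 to 12 reads per AsPC-1 library and at most 1 in Panc-1, so its small SE is that of values near the floor.

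**Figure D2:**
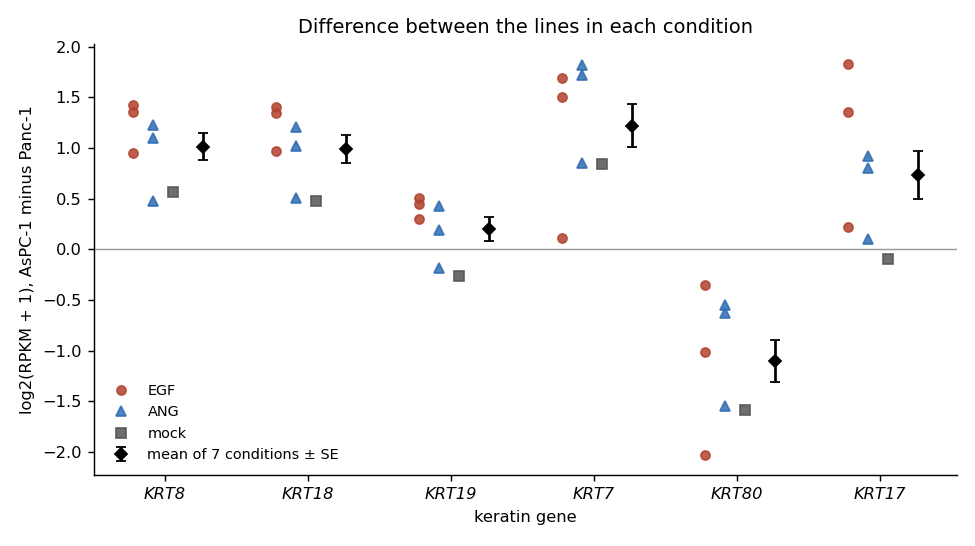
Difference in log2(RPKM + 1) between AsPC-1 and Panc-1 for 6 keratin genes, with a point for each condition (circles EGF, triangles ANG, squares mock) and a diamond with its bar for the mean of 7 conditions ± SE from limma. All 7 points lie above 0 for KRT8, KRT18 and KRT7 and below 0 for KRT80, and the KRT19 points lie on both sides.

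The 24 h libraries were set against those of 1 h and 5 h within the courses of each line, to see how the keratins change between early and late treatment. In AsPC-1, KRT7 and KRT80 were lower at 24 h, and KRT8, KRT18 and KRT19 did not pass the test. KRT7 was at 4.55 and 6.32 RPKM in the 24 h libraries, against 10.0 to 15.7 RPKM in the early libraries, and its log2 fold change was -1.07 ± 0.17 (limma adjusted p = 0.00174). KRT80 was at 3.66 and 4.90 RPKM at 24 h, against 5.98 to 9.33 RPKM early, with a log2 fold change of -0.66 ± 0.17 (limma adjusted p = 0.0162). KRT17 was at 0.12 and 0.22 RPKM at 24 h, against 0.81 to 2.78 RPKM early, with a log2 fold change of -1.09 ± 0.14. As it passed the filter only through these early libraries, its filtered test supports nothing. In the fit with no filter it had a limma adjusted p of 0.00298, beside 3855 genes called higher and 2424 lower of 19783. For all 3 genes the late and early AsPC-1 libraries did not overlap, and the mock library was also below the early ones. The KRT80 call was lost without the AsPC-1 library of 24 h of EGF, where the log2 fold change was -0.45 (limma adjusted p = 0.161).

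KRT81 was listed at 0 in both late AsPC-1 libraries, against 0.25 to 0.55 RPKM in the early ones, and with no filter its log2 fold change was -0.48 ± 0.05 (limma adjusted p = 0.00181). The early values rest on an estimated 9 to 24 reads, partly shared with KRT86, so its small SE is that of values near the floor. KRT8 (-0.24 ± 0.14), KRT18 (-0.05 ± 0.15) and KRT19 (-0.06 ± 0.11) had limma adjusted p of 0.190, 0.822 and 0.728 in AsPC-1, and their late and early libraries overlapped. Over all genes 49.2% passed in AsPC-1, 29.8% higher and 19.4% lower at 24 h, against 0 higher and 3 lower of the 6 members, or 0 and 2 of 5 without KRT17. With each library centred on its median, the 4007 genes higher and 2603 lower became 3158 and 3883, and again 0 members were higher and 3 lower, KRT17 included. Centring moved the AsPC-1 value of KRT8 to -0.38 (limma adjusted p = 0.0533) and that of KRT19 to -0.20 (limma adjusted p = 0.232).

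In Panc-1 the early and late libraries stood in the opposite order for several members. KRT18 was at 395 and 523 RPKM at 24 h, against 313 to 350 RPKM early, with a log2 fold change of 0.45 ± 0.15 (limma adjusted p = 0.0547). KRT80 was at 16.2 and 18.1 RPKM at 24 h, against 9.78 to 13.1 RPKM early, with 0.49 ± 0.17 (limma adjusted p = 0.0658). KRT19 was at 424 and 429 RPKM at 24 h, against 317 to 369.6 RPKM early, with 0.28 ± 0.11 (limma adjusted p = 0.0797). KRT8 was at 297 and 378 RPKM at 24 h, against 250.2 to 294 RPKM early, with 0.32 ± 0.14 (limma adjusted p = 0.113). For these 4 genes the late libraries were above all early ones without overlap, and mock was also above the early ones, yet none passed the threshold. KRT7 (0.13 ± 0.17) and KRT17 (-0.02 ± 0.14) had limma adjusted p of 0.606 and 0.936.

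Of the 6 members tested by limma in Panc-1, 0 passed and 3 had an unadjusted p under 0.05, beside 33.0% of all genes called. With genes under 400 bp left out of each library's total, KRT18 (0.55), KRT19 (0.38) and KRT80 (0.59) passed, and with each library centred on its median KRT80 did (0.50). KRT80 was also called without either AsPC-1 library of 1 h, and KRT18 without either AsPC-1 library of 24 h. The Panc-1 fold changes were unchanged there, since AsPC-1 libraries do not enter them. Only the estimate of spread, which both lines share, had moved. With genes under 400 bp left out, the genes called in Panc-1 were 3113 higher and 1800 lower, against 2152 higher and 2282 lower with all genes in the total.

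The difference between the lines in this late against early change was tested as an interaction, AsPC-1 minus Panc-1. KRT7 differed by -1.20 ± 0.24 on the log2 scale (limma adjusted p = 0.00637) and KRT80 by -1.15 ± 0.25 (limma adjusted p = 0.00805). KRT17, which the filter again kept only for its early AsPC-1 level, differed by -1.07 ± 0.20, with a limma adjusted p of 0.012 in the fit with no filter. That fit called 3240 genes higher and 2392 lower of 19783. KRT8 (-0.56 ± 0.19), KRT18 (-0.51 ± 0.21) and KRT19 (-0.34 ± 0.15) had limma adjusted p of 0.0507, 0.0920 and 0.109. The members called were 0 higher and 3 lower of 6, or 0 and 2 of 5 without KRT17, beside 43.6% of all genes called, 25.5% higher and 18.1% lower. Over the 5 without KRT17 the median was -0.56, against 0.05 over all genes. With each library centred on its median, KRT8 and KRT18 passed as well, and the genes called became 2744 higher and 3705 lower, in place of 3424 and 2428. With genes under 400 bp left out of the total, all 6 members passed and the genes called were 2856 higher and 3548 lower. With no filter KRT81 also differed, by -0.39 ± 0.07 (limma adjusted p = 0.0131), on values near the floor in both lines.

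The G2 and M phase genes given above moved with the same split of early against late libraries and in opposite directions in the lines, and their part in these keratin differences was not tested. With the courses of both lines pooled, 24 h against 1 h and 5 h called 0 of the 6 members by limma (1 at an unadjusted p under 0.05, KRT17), beside 15.2% of all genes. KRT17 was again kept by the filter only for its early AsPC-1 level. Between 5 h and 1 h the log2 fold changes of the 6 members were -0.23 to 0.21, and limma called 0 of them (0 at an unadjusted p under 0.05), beside 0.0% of all genes.

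**Figure D3:**
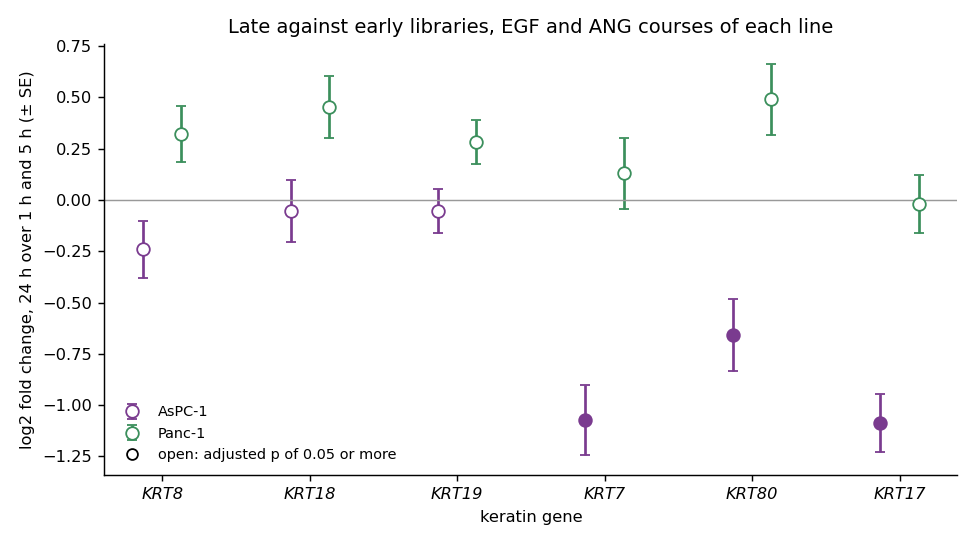
Log2 fold change of the 24 h libraries over those of 1 h and 5 h for 6 keratin genes, in AsPC-1 (left of each pair) and Panc-1 (right), with bars of ± SE from limma; filled points have an adjusted p under 0.05. KRT7 (-1.07), KRT80 (-0.66) and KRT17 (-1.09) are filled in AsPC-1, and no point is filled in Panc-1. KRT17 passed the filter on low values only through its early AsPC-1 libraries.

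Each treatment was compared with mock over both lines, to look for keratin responses to the ligands. None of the 6 members passed in any of these 6 comparisons by limma, none had an unadjusted p under 0.05, and the log2 fold changes lay between -0.38 and 0.88, where the medians of all genes were -0.17 to -0.09. All genes called were 0.663% after 1 h of EGF, 4.22% after 5 h and 0.0% after 24 h, and 0.0819%, 0.112% and 0.0% after ANG. These shares depend on single libraries, since after 1 h of EGF limma called 0 genes with any of 11 of the 14 libraries left out (1321 to 2596 at an unadjusted p under 0.05). After 5 h of EGF it called 0 without either mock library or either 5 h EGF library (1768 to 3294 unadjusted). The largest member changes were those of KRT17 after 5 h of EGF, 0.88 ± 0.44 (limma adjusted p = 0.274), and of KRT7 after 1 h of EGF, 0.86 ± 0.40 (limma adjusted p = 0.319). KRT17 passed the filter on low values only through the early AsPC-1 libraries, so its values here support nothing. The 6 comparisons share the mock libraries, and the spread is how the conditions differ between 2 lines, so a response present in AsPC-1 alone counts as spread.

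Within a line a treated library can be set against mock only as 1 library against 1, with no test. In AsPC-1, KRT7 was at 15.7 RPKM after 1 h of EGF, against 5.87 RPKM in mock, and KRT17 was at 1.66 RPKM, against 0.05 RPKM. These were the 2 members at least 2-fold higher on RPKM + 1 after 1 h of EGF, and KRT17 alone was so after 5 h of EGF. KRT17 passed the filter on low values only through the early AsPC-1 libraries, so its place in these counts supports nothing. Without it, KRT7 was left after 1 h and no member after 5 h. Of all genes 5.23% were 2-fold higher and 12% lower after 1 h of EGF, and 5.27% higher and 14.4% lower after 5 h. After 1 h and 5 h of ANG, KRT17 at 0.81 and 1.09 RPKM fell short of 2-fold on that scale and KRT7, at 11.8 and 12.7 RPKM, also did not reach it. In plain RPKM, KRT7 was 2.02 and 2.16 times mock after 1 h and 5 h of ANG, beside 2.68 and 1.7 times after EGF. Of all genes 4.77% were 2-fold higher and 10.9% lower after 1 h of ANG, and 5.0% higher and 12.1% lower after 5 h. After 24 h no AsPC-1 member was 2-fold from mock on RPKM + 1, beside 2.42% of genes higher and 2.76% lower with EGF, and 1.42% higher and 0.0447% lower with ANG. In Panc-1 no member was 2-fold higher or lower on RPKM + 1 in any of 6 treated libraries. Of all genes in Panc-1, 3.37%, 3.89% and 1.99% were 2-fold higher and 2.11%, 3.38% and 0.186% lower after 1, 5 and 24 h of EGF, and 3.77%, 4.1% and 2.56% higher and 1.92%, 2.41% and 0.0968% lower after ANG. The KRT8 and KRT18 levels of the early Panc-1 libraries were below mock in 4 of 4 libraries. In AsPC-1, after 1 h and 5 h of EGF, they were 1.27 and 1.21 times mock for KRT8 and 1.22 and 1.23 times for KRT18. After 1 h and 5 h of ANG they were nearer to mock, at 0.957 and 0.989 times for KRT8 and 0.925 and 0.993 times for KRT18.

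EGF was compared with ANG within the 6 pairs of line and time, to see whether the keratins separate the ligands. KRT19 was at 505, 521 and 522 RPKM after EGF in AsPC-1, against 399, 427 and 376 RPKM after ANG, so that the ligands did not overlap in this line. In Panc-1 it was higher with EGF at 1 h and 5 h and slightly lower at 24 h. Over both lines its log2 fold change was 0.23 ± 0.08, higher in 5 of 6 pairs, and did not pass (limma adjusted p = 0.25). In AsPC-1 alone it was 0.37 ± 0.10 (limma adjusted p = 0.163), in Panc-1 0.09 ± 0.10 (limma adjusted p = 0.894), and the difference between the lines was 0.27 ± 0.14 (limma adjusted p = 0.676).

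KRT8, KRT18 and KRT17 were also higher with EGF in 3 of 3 AsPC-1 pairs, by 0.28 ± 0.13, 0.25 ± 0.14 and 0.51 ± 0.13 on the log2 scale (limma adjusted p of 0.316, 0.384 and 0.152). KRT17 passed the filter on low values only through early AsPC-1 libraries, so its tests between the ligands support nothing. Its 24 h pair in AsPC-1 was at 0.22 and 0.12 RPKM, an estimated 7 and 4 reads. In Panc-1 the KRT8 and KRT18 levels were higher with EGF at 1 h and 5 h and lower at 24 h, but the KRT18 pair of 1 h was nearly level (334 and 332 RPKM). KRT7 and KRT80 were higher with EGF at 1 h and lower at 5 h and 24 h in AsPC-1, and higher with EGF in 3 of 3 Panc-1 pairs. The Panc-1 pairs of 5 h were nearly level, at 2.89 and 2.88 RPKM for KRT7 and 13.1 and 12.7 RPKM for KRT80. Of the 6 members limma called 0 over both lines (1 at an unadjusted p under 0.05, KRT19), beside 0.156% of all genes. In AsPC-1 it called 0 (2 unadjusted, KRT17 and KRT19), in Panc-1 0 (0 unadjusted) and in the difference between the lines 0 (1 unadjusted, KRT17), each beside 0.0% of all genes.

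**Figure D4:**
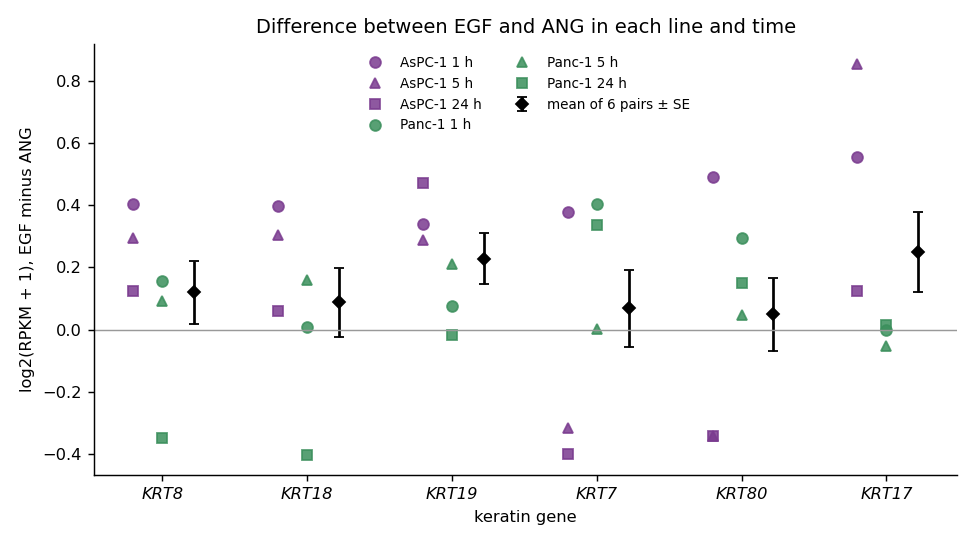
Difference in log2(RPKM + 1) between EGF and ANG for 6 keratin genes, with a point for each pair of line and time (purple AsPC-1, green Panc-1; circles 1 h, triangles 5 h, squares 24 h) and a diamond for the mean of 6 pairs ± SE from limma. The AsPC-1 points of KRT8, KRT18, KRT19 and KRT17 all lie above 0, and no mean passed the test. KRT17 passed the filter on low values only through its early AsPC-1 libraries.

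Of the 45 other keratin genes, 41 reached 1 RPKM in no library and 4 passed the filter. KRT23, a type I keratin, was at 29.9 RPKM in the AsPC-1 mock library, at 4.38, 2.54 and 4.88 RPKM after 1, 5 and 24 h of EGF, and at 3.66, 3.59 and 29.7 RPKM after ANG, against at most 0.21 RPKM in Panc-1. It was high in the AsPC-1 mock and 24 h ANG libraries and low in the other 5. Its late against early log2 fold change in AsPC-1 was 1.58 ± 0.44 (limma adjusted p = 0.0204), beside 29.8% of all genes higher. That rise rests on the 24 h ANG library, since the 24 h EGF library, at 4.88 RPKM, was near that of 1 h of EGF, at 4.38 RPKM. KRT16, a wound-induced type I keratin, was at 0.56 RPKM in the AsPC-1 mock library, at 1.83, 4.0 and 0.73 RPKM after EGF, and at 1.08, 1.35 and 0.63 RPKM after ANG. Like KRT17 it was highest in the 4 early AsPC-1 libraries, through which alone it passed the filter on low values, and its late against early log2 fold change of -0.78 ± 0.20 in AsPC-1 is given with no test. KRT15, a basal type I keratin, was lower in AsPC-1 than in Panc-1 (-0.80 ± 0.12, limma adjusted p = 0.000292), and KRT10, a suprabasal type I keratin, did not differ past the threshold (-0.37 ± 0.15, limma adjusted p = 0.0571).

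The linkers and other filament genes were compared between the lines in the same fit. The counts that follow stand beside 29.3% of all genes higher and 39.6% lower in AsPC-1. Of 14 linker and desmosome plaque genes 13 were measured, of which 8 were higher and 2 lower in AsPC-1, with a median log2 fold change of 1.19. Among them were the desmosomal cadherins DSC2 (4.21 ± 0.17, limma adjusted p = 8.04e-08) and DSG2 (4.15 ± 0.06, 5.47e-10). Desmoplakin, DSP, which ties keratins to the plaque, was also higher (3.31 ± 0.08, limma adjusted p = 4.14e-09). The plaque protein gene PKP2 (3.59 ± 0.09) was at 0.43 to 0.97 RPKM in Panc-1. It passed the filter on low values only through AsPC-1, so its place in the count supports nothing. Of 6 measured genes of other intermediate filaments 1 was higher and 3 were lower in AsPC-1. The lower ones were the mesenchymal and neural filament genes NES (-4.74 ± 0.11, limma adjusted p = 3.09e-09), VIM (-0.69 ± 0.10, 0.000364) and SYNM (-3.30 ± 0.13). SYNM was at 0.39 to 0.91 RPKM in AsPC-1 and passed the filter on low values only through Panc-1, so its place in the count supports nothing. VIM was at 1270 to 1800 RPKM in AsPC-1, against 2040 to 2760 RPKM in Panc-1, and the ratio of VIM to all keratins was 0.632 to 0.950 in AsPC-1 and 1.5 to 2.47 in Panc-1, with no overlap. Of 15 measured epithelial transcription factors 9 were higher and 5 lower in AsPC-1. Among the higher were EHF (5.56 ± 0.08, limma adjusted p = 5.47e-10) and KLF5 (4.74 ± 0.20, 1.08e-07), and among the lower was FOXA2 (-3.49 ± 0.14). FOXA2, at 0.08 to 0.37 RPKM in AsPC-1, passed the filter on low values only through Panc-1, as did GRHL1, GRHL3 and TFAP2C. HNF4A, OVOL1 and OVOL2 passed it only through AsPC-1. The places in these counts of genes kept by 1 line alone support nothing.

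Late against early, the linkers moved in both directions in AsPC-1, where 2 of 13 were higher and 3 lower at 24 h, beside 29.8% and 19.4% of all genes. Plectin, PLEC, a linker of intermediate filaments to junctions, fell by 1.79 ± 0.09 and plakoglobin, JUP, by 0.76 ± 0.10 on the log2 scale, whereas envoplakin, EVPL, rose by 1.73 ± 0.17 (limma adjusted p of 2.86e-05, 0.000871 and 0.000197). In Panc-1, 3 of 13 linkers were higher and none lower at 24 h by limma, beside 33.0% of all genes called in either direction. They were JUP (1.10 ± 0.10, limma adjusted p = 0.000906), EVPL (0.80 ± 0.17, 0.0106) and PLEC (0.30 ± 0.09, 0.0374), so that EVPL rose in both lines. The difference between the lines was -2.09 ± 0.13 for PLEC and -1.86 ± 0.15 for JUP (limma adjusted p of 5.24e-05 and 0.000120), and with the opposite sign 1.05 ± 0.16 for FBF1 and 0.94 ± 0.24 for EVPL (limma adjusted p of 0.00205 and 0.0158). Between EGF and ANG, 0 of the 38 measured genes of these lists passed by limma (7 at an unadjusted p under 0.05). Against mock, the transcription factors ELF3 (-1.71 ± 0.26, limma adjusted p = 0.0203) and GRHL3 (-0.87 ± 0.17, 0.0368) were lower after 5 h of EGF, 2 of 38 beside 4.22% of all genes. Both calls ended without either mock library or either 5 h EGF library, where limma called 0 genes, as given above. In the other 5 comparisons with mock limma called 0 of the 38 (0 to 7 at an unadjusted p under 0.05).

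Likeness of profile was measured as the mean absolute difference between levels on the log2(RPKM + 1) scale over the 14 libraries, each gene centred within its line and scaled to unit SD, among 9556 genes. Smaller values mean more alike profiles, and these are descriptions of 14 libraries with no test. KRT8 and KRT18 were 0.288 SD apart, with 1 gene nearer to KRT8 and 0 nearer to KRT18. That gene was SYS1, which encodes a Golgi membrane protein, at 0.258 SD from KRT8 and 0.296 SD from KRT18. KRT8 was followed by MTA2 (0.303) and CORO2A (0.315), and KRT18 by CDC42EP4 (0.304) and ZBTB45 (0.338). KRT19 was nearest to OGDH, a subunit of the 2-oxoglutarate dehydrogenase complex (0.252), and then to PLCB3 (0.321) and AGPAT2 (0.335). KRT7 was nearest to MRPS26, a mitochondrial ribosomal protein gene (0.263), SPATA5L1 (0.274) and TNFRSF1B (0.289). KRT80 was nearest to RHBDF1, which encodes an inactive rhomboid protein (0.310), TGIF2 (0.320) and BAG3 (0.325). KRT7 and KRT19, often paired in ducts, were 0.929 SD apart, with 2841 genes nearer to KRT7 than KRT19 was, and KRT7 and KRT80 were 0.560 SD apart.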

How the data were processed

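RNA sequencing was analysed in 14 libraries, 1 per group, grouped by the labels. The deposited files hold log2 values of RPKM per gene that the authors computed, per the file headers. Per the submitters' processing notes, coordinates are in hg19. No aligner, counter, annotation or strand setting is given in the sources used here. Values were turned back to RPKM, and the lowest log2 value (-8.966) was read as 0. Depth was estimated from the steps of genes of at most 150 bp, and estimated reads use GENCODE 29 transcript lengths. Counts were not rebuilt.

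Linear models were fitted to log2(RPKM + 1) in R 4.3.3 (limma 3.58.1, variance trend on), for 13427 genes at 1 RPKM or more in 2 or more libraries, with Benjamini-Hochberg adjustment and a threshold of 0.05. The lines were compared within 7 conditions and treatments with mock in an additive model of line and condition (all 14 libraries). EGF and ANG were compared within 6 pairs, times within 4 courses (12 treated libraries). Each fit was tested on simulated data. Alternatives were a pseudocount of 0.1, centring each library on its median, leaving genes under 400 bp out of the total, no filter, no trend, a fold of 1.5, and leaving out each library. Leaving out the 24 h libraries was added after seeing the data. Members and lists were chosen with earlier results of these data known. Named were all members, up to 4 genes past the test per list and comparison with a mean of 1 RPKM or more, and the 3 nearest profiles of each abundant member. KRT16 and KRT10 were named outside this rule where it did not take them. A further ductal marker is not reported here.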

Additional observations from a re-analysis of the deposited data

Results flagged for a closer look

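The change of 24 h against 1 h and 5 h differed between the lines for KRT7 and KRT80, by the limma test of the interaction. KRT7 differed by -1.2 on the log2 scale, its late libraries being below the early ones in AsPC-1 and overlapping them in Panc-1. KRT80 differed by -1.15, its late libraries being below the early ones in AsPC-1 and above them in Panc-1. KRT17 differed by -1.07, but it passed the filter on low values only through the early AsPC-1 libraries, so that this test supports nothing, and with no filter its limma adjusted p was 0.012. It was at 0.12 RPKM or less in all 7 Panc-1 libraries. Genes of the G2 and M phases moved with the same libraries, and their part in these differences was not tested.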

How the results depend on the processing

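No paired analysis was possible because the labels give 1 library per group and no shared replicate numbers, and line, time and condition are already terms of the fits. Of the values for counts of called members 315 were within 1.5 times and 23 were not. Many of the 315 were 0 in comparisons such as 5 h against 1 h, where limma called 0 genes, and had little room to change. Of the values for single members 480 kept direction and call, 17 gained a call, 4 lost one and 4 changed sign. For 24 h against 1 h and 5 h in Panc-1, the members called were 0 with the settings reported, 1 with centring, 3 with genes under 400 bp left out and 2 with no trend, and 0 to 1 over the libraries left out. For the difference between the lines in that change, the 3 members called became 5 with centring and 6 with genes under 400 bp left out. Of members 2-fold from mock in AsPC-1, a pseudocount of 0.1 gave 1 after 24 h of EGF and 2 after 1 h and 2 after 5 h of ANG. Centring gave 2 and 2 after 1 h and 5 h of ANG, and leaving genes under 400 bp out gave 1 and 2. A fold of 1.5 gave 2 in AsPC-1 after 5 h of EGF and 2 after 1 h and 2 after 5 h of ANG, and in Panc-1 it gave 1 and 1 lower after 1 h and 5 h of EGF and 3 and 2 lower after 1 h and 5 h of ANG. The cause of these shifts was not tested. Leaving out each library gave late against early values of -0.20 to 0.09 for KRT18 in AsPC-1, where it was 0.0001 without the 1 h EGF library and 0.0919 without the 24 h EGF library. It gave -0.13 to 0.02 for KRT19 in AsPC-1 (0.0235 without the 24 h ANG library) and -0.0405 to 0.0001 for KRT17 in Panc-1. After 5 h of EGF against mock, 80 genes higher and 487 lower became 72 and 95 with centring, and after 1 h of EGF 28 and 61 became 19 and 16. With the courses pooled, 1184 genes higher and 859 lower at 24 h became 994 and 1266 with centring. Depth limits KRT5, KRT6A, KRT20 and KRT81, whose values rest on at most 8, 4, 12 and 24 estimated reads.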
